A study of Saccharomyces cerevisiae with 104 samples.

Results

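The mitochondrial matrix chaperones of the budding yeast Saccharomyces cerevisiae are described here by 8 genes, HSP60, HSP10, SSC1, ECM10, SSQ1, MDJ1, MGE1 and HSP78. They were chosen by gene name, and each name was found once among the 7108 genes listed in every RNA-seq abundance table. All 8 are among the 5989 nuclear protein-coding genes that serve as the comparison. The study behind the series concerns polymerase II that stalls when cells meet a short hydrogen peroxide stress. It holds 100 ChIP-exo samples, which map protein contacts on DNA and were not analysed here, and 4 RNA-seq libraries of total RNA. The same protocol text is attached to all samples, with growth at 25 °C, exposure to 0.3 mM H2O2 for 6 min and fixation in 1.0% formaldehyde. No strain, genotype, control or replicate is named for the RNA-seq libraries. They are called libraries 1 to 4, numbers that only name them, and each is described on its own. No value has a replicate error, no groups were compared and no test was made.

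Proteins that enter the mitochondrial matrix arrive unfolded through the inner-membrane import channel. The Hsp70 protein Ssc1 pulls them in and helps them fold, in cycles driven by the J protein Mdj1 and the nucleotide exchange factor Mge1. Many then fold inside the chaperonin barrel of Hsp60, which the Hsp10 ring closes as a lid, and Hsp78 resolves aggregates that have formed. Several of these genes, among them HSP60, SSC1, MDJ1 and HSP78, are known heat shock genes in yeast.

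The libraries differed in the share taken by messenger RNA. Abundance was deposited as TPM, a value per gene length scaled to the same total in every library, and nuclear protein-coding genes made up 46.9, 12.2, 21.2 and 5.77% of that total in libraries 1, 2, 3 and 4. TPM values are shares of a bulk sample, so less messenger of a gene and more of other RNA cannot be told apart. By aligned sequence, which is not divided by length, protein-coding genes held 232 of 302, 72.3 of 218, 137 of 236 and 41.4 of 189.6 megabases. The order of libraries 1, 2, 3 and 4 holds for every series of values here. The median protein-coding gene stood at 40.2, 7.5, 17.6 and 3.59 TPM, with a coverage (mean read depth per base) of 12.8, 3.7, 8.17 and 2.26. A gene that follows the median gene is therefore 11.2-fold higher in library 1 than in library 4 on the TPM scale. For that reason each level is also given relative to the median gene, as TPM divided by the median gene's TPM in the same library. Coverage gives the same relative levels, since TPM is a constant multiple of coverage within a library.

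Most matrix chaperone messengers were abundant. In each library 7 of the 8 genes lay above the median gene, SSQ1 by less than 2-fold, and ECM10 lay below it. Against the mean protein-coding gene SSQ1 also lay below, at -0.34, -0.97, -0.53 and -0.77 log2 units, and MGE1 did in library 3, at -0.01. The 8 genes together held 0.872, 0.446, 0.852 and 0.476% of the TPM of nuclear protein-coding genes. Their median log2 relative level was 3.38, 2.72, 3.69 and 2.95. HSP60 had the highest TPM of the 8 in libraries 1, 3 and 4, and SSC1 in library 2. MGE1, SSQ1 and ECM10 took the 3 lowest places, in that order, in each library. HSP10 stood below HSP78 and MDJ1 in libraries 1 and 3 and above both in libraries 2 and 4. Without replicates, it is not known which neighbours in these orders differ beyond sample spread.

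**Figure D1:**
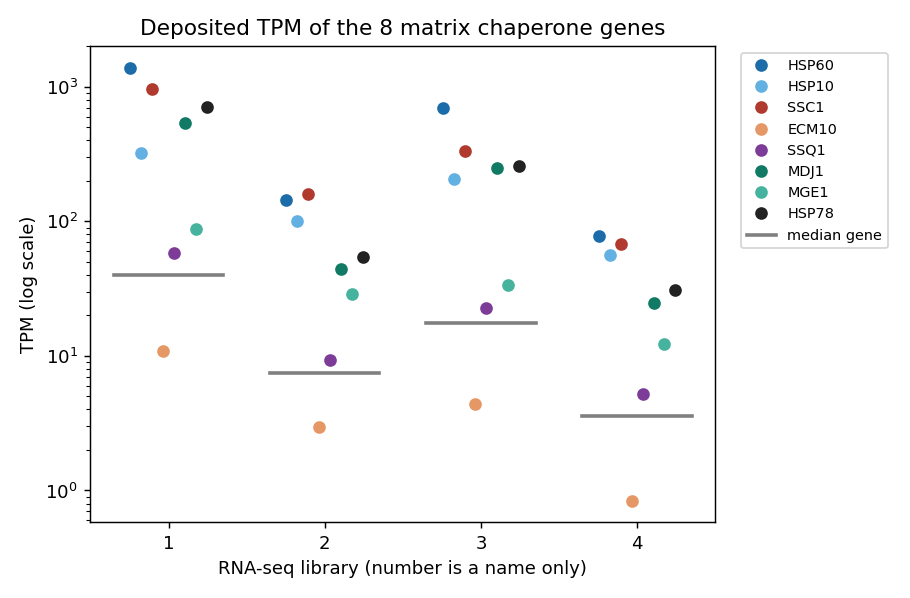
TPM on a log axis for the 8 genes (coloured points) in each of the 4 RNA-seq libraries, with the TPM of the median nuclear protein-coding gene as a grey bar. ECM10 lies below the bar in each library and the other 7 genes lie above it; the bar itself falls from 40.2 TPM in library 1 to 3.59 TPM in library 4.

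The chaperonin genes were among the most abundant messengers but took different courses across the libraries. HSP60, which encodes the barrel (YLR259C, chromosome 12, 663284 to 665002, minus strand, sacCer3), had 1390.1, 145, 702 and 78.1 TPM. Its coverage was 441, 71.7, 326 and 49.1, so it rested on ample depth in each library. It ranked 30th, 143rd, 24th and 114th of the 5989 protein-coding genes. HSP60 stood at 34.6, 19.4, 39.9 and 21.7 times the median gene. It was thus relatively highest in library 3 and lowest in library 2, a difference of 1.04 log2 units.

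HSP10, which encodes the lid (YOR020C, chromosome 15, 370524 to 370844, minus strand), had 321, 99.8, 206 and 55.9 TPM. Its rank was 164, 210, 121 and 183, and its coverage was at least 35.1. HSP10 stood at 7.97, 13.3, 11.7 and 15.5 times the median gene, lowest in library 1 and highest in library 4. The TPM ratio of HSP60 to HSP10 was 4.33, 1.46, 3.41 and 1.4, a span of 3.1-fold for the messengers of 2 proteins that work as one complex. An Hsp10 ring is known to have as many subunits as the Hsp60 ring it closes. Protein amounts were not measured, so the messenger ratio does not give the ratio of the proteins.

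Gene length accompanies that ratio. HSP10 spans 321 bp and HSP60 1719 bp, and short genes as a whole stood lower in library 1. Genes of like span were taken in a fixed window of relative length around each gene. For HSP10 these 391 protein-coding genes, of 258 to 399 bp, had a median of 17.4, 6.08, 9.85 and 2.79 TPM. On the log2 scale that median differed from the median gene by -1.21, -0.30, -0.84 and -0.37. Set against these genes of like span, HSP10 stood at 4.21, 4.04, 4.39 and 4.33 log2 units, a range of 0.35 in place of 0.96. HSP60 set against its own 1408 genes of like span stood at 4.93, 4.37, 5.26 and 4.52, a range of 0.89. With both genes divided by their like-span medians the HSP60 to HSP10 ratio was 1.66, 1.26, 1.83 and 1.14, a span of 1.6-fold. Across all tested genes, defined with the counts below, the median difference of library 1 against library 2 ran from -0.79 in the shortest of 10 span bins (78 to 435 bp) to 0.59 in the longest (2898 to 14733 bp). Between libraries 1 and 3 these ends were -0.45 and 0.37, and between libraries 2 and 4 they were -0.20 and 0.13.

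**Figure D2:**
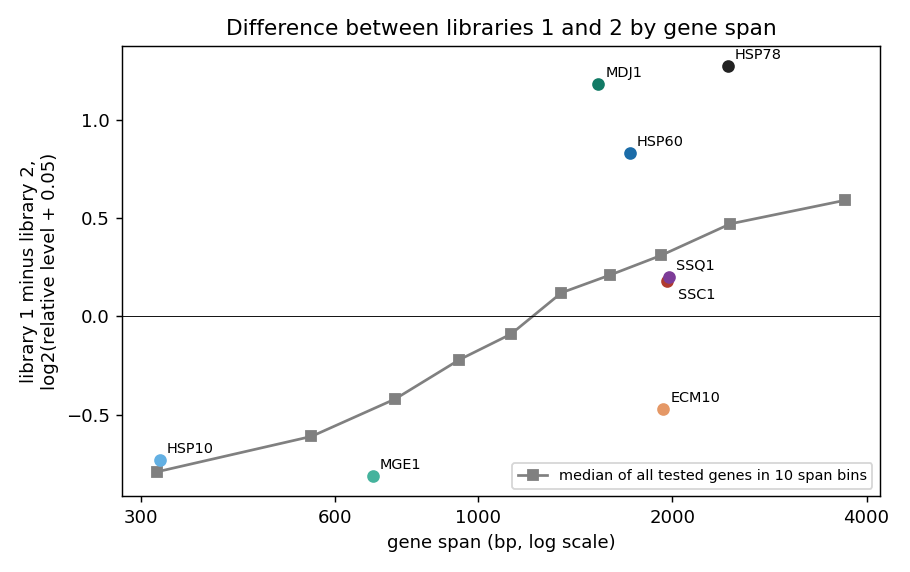
Difference of library 1 against library 2 in log2(relative level + 0.05) by gene span in bp on a log axis, for the 8 genes (coloured points) and as the median of all tested genes in 10 span bins (grey squares and line). The grey line climbs from -0.79 to 0.59. HSP10 at -0.73 lies close to it, and HSP78, MDJ1 and HSP60 lie above it. ECM10 (-0.47), MGE1 (-0.81), SSC1 (0.18) and SSQ1 (0.20) lie below it.

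The 3 Hsp70 genes differed in level far more than in course. SSC1, the essential import and folding Hsp70 (YJR045C, chromosome 10, 519638 to 521602, minus strand), had 969, 159.9, 332 and 67.4 TPM. It ranked 50th, 123rd, 67th and 143rd. At 24.1, 21.3, 18.9 and 18.8 times the median gene it kept a nearly constant relative level, with a range of 0.36 log2 units. SSC1 therefore differed 14.4-fold in TPM between libraries 1 and 4, against 11.2-fold for the median gene. The constancy depends on the reference. With the mean gene as reference, SSC1 differed by 0.82 log2 units in library 1 against library 4, in place of 0.36. In library 1 against library 2 it differed by 0.66 with the mean gene and by -0.17 with genes of like span.

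SSQ1, the Hsp70 specialised for iron-sulfur cluster transfer (YLR369W, chromosome 12, 859552 to 861525, plus strand), had 58.1, 9.37, 22.8 and 5.17 TPM. Its log2 relative level of 0.58, 0.38, 0.43 and 0.57 varied least among the 8, by 0.20 log2 units, with the median gene as reference. With the mean gene it did not vary least: SSQ1 ran from -0.34 to -0.97 and HSP10 from 2.05 to 2.55. Against genes of like span the range of SSQ1 was 0.33, beside 0.35 for HSP10 and 0.36 for SSC1. The SSC1 to SSQ1 ratio was 16.7, 17.1, 14.6 and 13. ECM10 (YEL030W, chromosome 5, 94644 to 96578, plus strand), a close paralog of SSC1, had only 10.9, 2.97, 4.41 and 0.841 TPM. That is 0.271, 0.395, 0.25 and 0.234 times the median gene, so ECM10 was relatively highest in library 2. Its coverage of 3.46, 1.46, 2.04 and 0.528 was the lowest of the 8, and the library 4 value rests on 1.02 kilobases of aligned sequence over a gene of 1935 bp. SSC1 exceeded ECM10 89-, 53.9-, 75.4- and 80.1-fold. How reads common to such paralogs were divided is not given in the sources used here, so the low ECM10 values are uncertain. ECM10 also overlaps a listed gene on the opposite strand, YEL030C-A, by 254 bp, at 1.52, 0.514, 0.794 and 0.364 TPM, and strandedness is unknown. None of the other 7 genes overlapped a listed gene.

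The cochaperones of Ssc1 had opposite orders across the libraries. MDJ1, which encodes the J protein that stimulates ATP hydrolysis by Ssc1 (YFL016C, chromosome 6, 104701 to 106236, minus strand), had 539, 44.1, 249.8 and 24.7 TPM. Its coverage was 171, 21.8, 116 and 15.5. MDJ1 ranked 91st and 93rd in libraries 1 and 3, but 434th and 363rd in libraries 2 and 4. It stood at 13.4, 5.88, 14.2 and 6.87 times the median gene, a range of 1.26 log2 units. Against its 1506 genes of like span it stood at 3.57, 2.62, 3.74 and 2.83 log2 units, a range of 1.12.

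MGE1, which encodes the nucleotide exchange factor (YOR232W, chromosome 15, 774573 to 775259, plus strand), had 88.2, 29.1, 33.4 and 12.2 TPM. It ranked 1228th, 680th, 1504th and 812th, with its better ranks in libraries 2 and 4 where those of MDJ1 were worse. MGE1 stood at 2.19, 3.87, 1.9 and 3.4 times the median gene, highest in library 2 and lowest in library 3, just over 2-fold apart. MGE1 is short, at 687 bp, and against its 920 genes of like span it stood at 1.31, 1.70, 0.86 and 1.52, a range of 0.84. The SSC1 to MGE1 ratio was 11, 5.5, 9.94 and 5.52. The SSC1 to MDJ1 ratio was 1.8, 3.63, 1.33 and 2.73. With like-span medians divided out, the SSC1 to MDJ1 ratio still spanned 2.79-fold and the SSC1 to MGE1 ratio spanned 1.41-fold. Messenger for the J protein was thus closest to that for Ssc1 in library 3 and farthest below it in library 2.

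**Figure D3:**
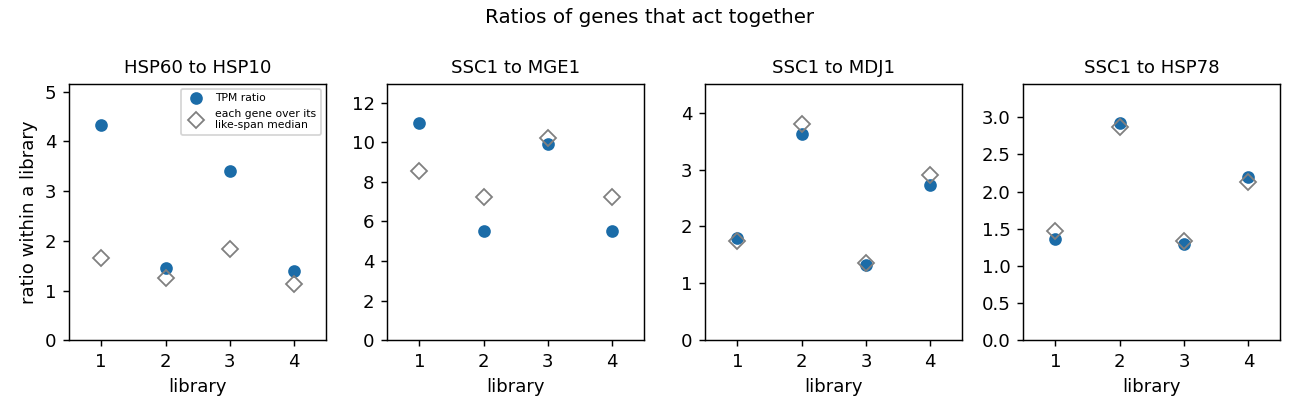
TPM ratios within each library for 4 pairs of genes that act together (filled points) and the same ratios after each gene was divided by the median gene of like span (open diamonds). The HSP60 to HSP10 ratio spans 3.1-fold as deposited and 1.6-fold after the division, while the SSC1 to MDJ1 ratio spans 2.73- and 2.79-fold.

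HSP78, the matrix disaggregase of the ClpB family (YDR258C, chromosome 4, 971808 to 974243, minus strand), had 712, 54.7, 256 and 30.7 TPM. Its coverage was 226, 27, 119 and 19.3. HSP78 ranked 69th, 353rd, 90th and 307th. It stood at 17.7, 7.29, 14.6 and 8.54 times the median gene, a range of 1.27 log2 units and the widest of the 8. HSP78 is also the longest of the 8, at 2436 bp. Against its 878 genes of like span it stood at 3.82, 3.02, 3.77 and 3.27, a range of 0.80. The SSC1 to HSP78 ratio was 1.36, 2.92, 1.3 and 2.2.

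**Figure D4:**
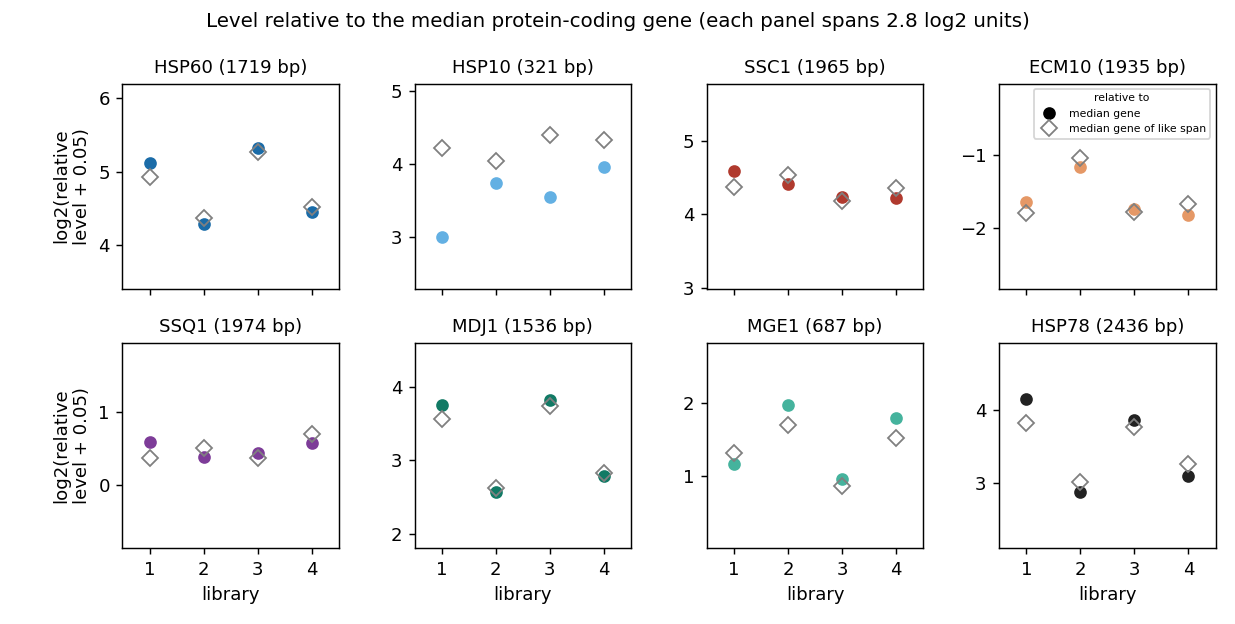
Level of each gene in libraries 1 to 4 as log2(relative level + 0.05), relative to the median protein-coding gene (filled points) and to the median gene of like span (open diamonds). HSP60, MDJ1 and HSP78 stand higher in libraries 1 and 3 than in libraries 2 and 4 by either reference, and HSP10, lowest in library 1 and highest in library 4 at 3.96, is nearly level against genes of like span.

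Differences between libraries were counted on the log2(relative level + 0.05) scale. The comparison was with 5667 protein-coding genes that reached 1 TPM in the median of the libraries, here called the tested genes. All 8 genes passed that filter. Of the 8, 4 spanned at least 2-fold over the 4 libraries (HSP60, MDJ1, MGE1 and HSP78), against 39.9% of the tested genes. The median range was 0.98 log2 units for the 8 and 0.84 for the tested genes. HSP60 (2.06-fold) and MGE1 (2.01-fold) lay just inside the limit and HSP10 (1.94-fold) just outside. Without library 2, and also without library 3, only MDJ1 and HSP78 of the 8 spanned 2-fold, against 29.98% and 36.3% of the tested genes. Against genes of like span only MDJ1 of the 8 did, and 32% of the tested genes. The share of the 8 past 2-fold is thus near that of other genes.

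By pair of libraries, the genes past 2-fold were the chaperonin barrel, the J protein, the disaggregase and the exchange factor. In library 1 against library 2, MDJ1 (1.18) and HSP78 (1.27) were past 2-fold higher, where 8.36% of the tested genes were. None of the 8 was past 2-fold lower, where 17.3% of the tested genes were. In library 3 against library 2, HSP60 (1.04) and MDJ1 (1.26) were past 2-fold higher, against 6.35% of the tested genes. MGE1, at 0.497 times its level in library 2, was past 2-fold lower in that pair, against 14.9%. HSP78 was just short of the limit in library 3 against library 2, at 0.99.

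In library 1 against library 4 only HSP78 (1.05) of the 8 was past 2-fold higher, against 9.74% of the tested genes, and none was lower, against 16.9%. In library 3 against library 4 only MDJ1 (1.04) was higher, against 6.65%, and none was lower, against 13.6%. Libraries 1 and 3 were close for all 8, with differences from -0.55 (HSP10) to 0.35 (SSC1). None of the 8 was past 2-fold in that pair, against 0.335% of the tested genes higher and 2.15% lower. In library 2 against library 4 the differences ran from -0.23 (HSP78) to 0.65 (ECM10). None was past 2-fold there either, against 4.16% higher and 2.58% lower. The 6 pairs share libraries and are not separate observations. Against genes of like span, MDJ1 in library 3 against library 2 (1.12) was the 1 difference past 2-fold among the 8 genes and 6 pairs. Shares of the tested genes by pair are not given for that reference. The MGE1 difference in library 3 against library 2 fell below the limit with median-of-ratios scaling.

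**Figure D5:**
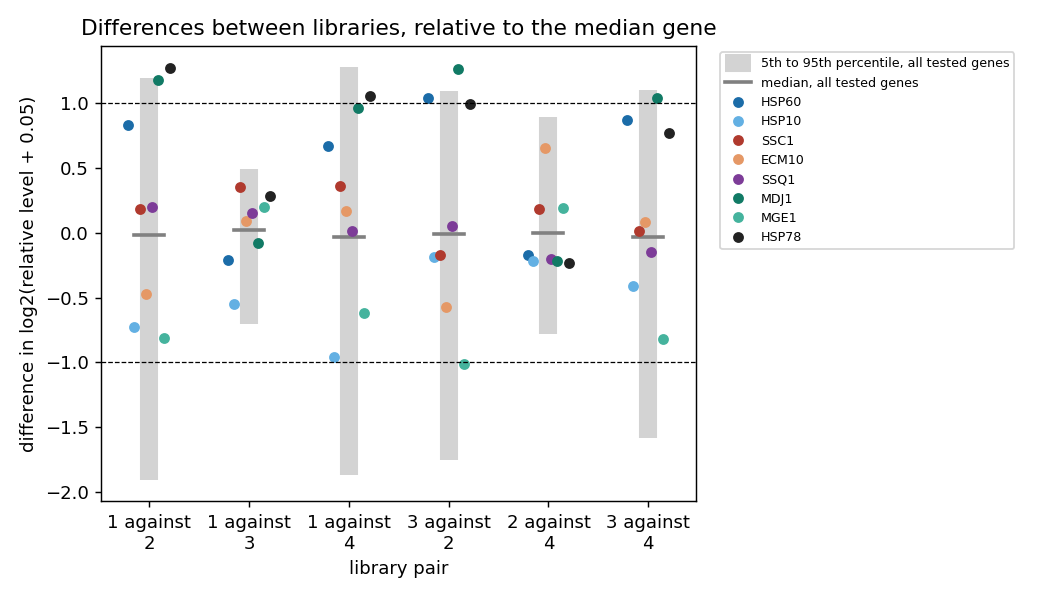
Difference in log2(relative level + 0.05) between the libraries of each of the 6 pairs, for the 8 genes (coloured points) and for the tested genes (grey bar from the 5th to the 95th percentile, with the median). Dashed lines mark 2-fold; HSP60, MDJ1 and HSP78 are the highest of the 8 in the pairs of library 1 or 3 with library 2 or 4, and MGE1 lies lowest or next to lowest in those pairs.

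Likeness of course was measured as the distance between profiles, each profile being the log2(relative level + 0.05) values less their own mean, over 4 libraries only. MDJ1 and HSP78 were closest, at a distance of 0.273, with HSP60 and MDJ1 at 0.274 and HSP60 and HSP78 at 0.385. Of 3341 other protein-coding genes at or above a median of 10 TPM, 96 lay nearer to MDJ1 than HSP78 did. SSC1 and SSQ1 were 0.31 apart. SSC1 and its paralog ECM10 were 0.474 apart. MDJ1 and MGE1 were farthest apart, at 1.96, and HSP60 and HSP10 were 1.45 apart, with 2489 of the 3341 genes nearer to HSP60 than HSP10 was. The messengers of the complex partners Hsp60 and Hsp10 thus did not share a course on this scale, which takes no account of gene span. Against genes of like span, HSP10 had a range of 0.35 log2 units in place of 0.96.

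With only 4 points per profile, many genes outside the 8 lay near each of them. Nearest to HSP60 were the cell-cycle phosphatase gene CDC14 (distance 0.0486), the nucleoporin gene NUP49 (0.0498) and RSC9 (0.0757), of a chromatin remodeller. Nearest to MDJ1 were TAH18 (0.0605), ABZ1 (0.076) and DLD3 (0.0876). HSP78 lay nearest to MGM1 (0.06), a mitochondrial fusion GTPase gene, YME1 (0.0804), an inner-membrane protease gene, and NUT1 (0.0846). HSP10 lay nearest to MVB12 (0.0688), MLC2 (0.0967) and SOL3 (0.108). MGE1 lay nearest to the glycolytic gene PFK1 (0.0493), CAM1 (0.059) and GAS1 (0.0743). SSC1 lay nearest to HEM1 (0.0303), which encodes the mitochondrial enzyme that starts heme synthesis, RHO3 (0.0498) and RBA50 (0.0508). SSQ1 lay nearest to DPL1 (0.0182), MEX67 (0.0249) and CIN10 (0.0416). ECM10 lay nearest to YLH47 (0.0729), to a purine synthesis gene at 0.0838 and to ESF2 (0.0855).

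The wider matrix machinery was given by a list of 25 import, iron-sulfur cluster, processing and protease genes, of which 24 were found by name. Their median log2 relative level was 1.07, 0.99, 1.18 and 1.12, below that of the 8 chaperone genes in each library. In this list 10 of 24 spanned 2-fold, against 39.9% of the tested genes. Without library 1 it was 6 of 24, against 29.9%. In library 1 against library 2, 3 of 24 were past 2-fold higher and 5 lower, against 8.36% and 17.3% of the tested genes. In library 3 against library 2 none was higher and 3 were lower, against 6.35% and 14.9%. TIM44, which tethers Ssc1 to the import channel, had 174, 21.2, 70.9 and 10.9 TPM, at 4.32, 2.83, 4.02 and 3.03 times the median gene. PIM1, the matrix Lon protease gene, had 139, 14.2, 47.7 and 6.95 TPM, at 3.45, 1.89, 2.71 and 1.93 times. Both were relatively higher in libraries 1 and 3, by less than 2-fold. Against genes of like span PIM1, a long gene of 3402 bp, had a range of 0.33 log2 units in place of 0.85. For TIM44 (1296 bp) the range was 0.53 in place of 0.60.

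ZIM17 and JAC1, both short, were relatively higher in libraries 2 and 4 than in libraries 1 and 3. Among other short genes of the list, PAM17 (594 bp), ISU1 (498 bp), ISU2 (471 bp) and YFH1 (525 bp) had that order too. PAM16 (450 bp), PAM18 (507 bp), MDJ2 (441 bp), GRX5 (453 bp), TIM23 (669 bp) and TIM17 (477 bp) did not. The order was not limited to short genes, since TIM50 (1431 bp) and MCX1 (1563 bp) of the list had it as well. These other genes were named after their values were seen, and a link of the order to span was not tested. ZIM17, which keeps Ssc1 soluble (525 bp), had 23.1, 11.3, 9.99 and 4.82 TPM, at 0.574, 1.51, 0.568 and 1.34 times the median gene. JAC1, the J protein that works with Ssq1 (555 bp), had 5.59, 4.97, 5.56 and 2.07 TPM. That is 0.139, 0.662, 0.316 and 0.575 times the median gene, a range of 1.91 log2 units, although its coverage was at most 2.58. Against genes of like span the ranges of ZIM17 and JAC1 were 1.00 and 1.37. ISU1, the scaffold on which clusters are built and a client of Ssq1, was named after its values were seen because its range of 2.36 was the widest of the list. It had 140.5, 96.4, 56.2 and 59.6 TPM, and its near copy ISU2 makes single values uncertain.

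Cytosolic chaperones, as a list of 25 genes all found by name, offer the nearest comparison in function. Their median log2 relative level was 3.78, 3.72, 3.70 and 3.78. This list median varied less between libraries than that of the 8 matrix genes, but the single genes did not. Of the cytosolic genes, 12 of 25 spanned 2-fold, against 39.9% of the tested genes, with a median range of 0.99 against 0.98 for the matrix genes. The median of the single-gene differences in library 1 against library 2 was 0.56, beside 0.19 for the matrix genes. In library 3 against library 2 it was 0.48 beside -0.06, and in library 1 against library 3 it was 0.11 beside 0.12. In library 2 against library 4 it was -0.10 beside -0.18. In library 1 against library 2, 8 of 25 cytosolic genes were past 2-fold higher and 1 was lower, beside 2 and 0 of the 8 matrix genes and 8.36% and 17.3% of the tested genes. In library 3 against library 2 these counts were 7 and 2 of 25, beside 2 and 1 of 8 and 6.35% and 14.9% of the tested genes. The largest cytosolic difference in library 1 against library 2 was 2.67, while the largest in the matrix was 1.27, for HSP78. These list differences take no account of gene span, with which the median difference of library 1 against library 2 shifted among all tested genes. Against genes of like span, 10 of 25 cytosolic genes and 1 of the 8 matrix genes spanned 2-fold, against 31.97% of the tested genes. The difference between the lists was not tested.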

How the data were processed

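Abundance tables of 4 RNA-seq libraries were used. Per the file headers, the deposited columns are coverage, a signal of mean read depth per gene, FPKM and TPM. Each TPM column sums to 1000000 with ribosomal RNA included, and TPM and FPKM are constant multiples of coverage within a table, so FPKM adds nothing and was not analysed. Read counts and total depth are unknown, and no intervals were computed. The build sacCer3 and the tools BWA, Picard and SAMtools are named in the submitters' processing notes, which cover both assays. The RNA-seq aligner, abundance estimator and strandedness are not given in the sources used here.

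Protein-coding class came from a RefSeq gene table (R64), which matched 6011 of 7108 identifiers, 5997 with equal starts. It held all 8 chaperone genes by symbol and start. No sequences were used, so the planned description of promoters and proteins was not made.

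Relative level was TPM over the median nuclear protein-coding TPM, transformed as log2(relative level + 0.05), which understates differences of low genes. Of 5989 genes, 322 with a median TPM below 1 were left out. A 2-fold difference was counted. Genes of like span lay in a window of fixed relative width around each gene's span (258 to 399 bp for HSP10). Named genes were the 8 members, TIM44, ZIM17, JAC1, PIM1 and the 3 nearest profiles of each member. Members and lists were chosen with earlier results of these data known. Alternatives were pseudocounts of 0.01 and 0.2, log2(TPM + 1), coverage, mean-gene and median-of-ratios references, a like-span reference, other filters and left-out libraries. The calculation was tested on simulated data with changes well past 2-fold in abundant genes, little noise and no shift by gene span. That check therefore does not bear on differences near 2-fold, on low genes or on effects of span. Python 3.11.15, numpy 2.4.6, pandas 2.3.3 and matplotlib 3.10.9 were used.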

Additional observations from a re-analysis of the deposited data

How the results depend on the processing

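With genes of like span as reference, the number of the 8 genes that spanned 2-fold was 1 in place of 4. The share of the tested genes was then 31.97% in place of 39.9%. The HSP60 to HSP10 ratio spanned 1.6-fold in place of 3.1-fold. The like-span version of the ratio was chosen after seeing the data. Counts past 2-fold higher with that reference were 0 in library 1 against 2, 0 in 1 against 4, 1 in 3 against 2 and 0 in 3 against 4, and the count lower in 3 against 2 was 0. With each library left out in turn, 2 to 4 of the 8 genes and 6 to 10 of the 24 matrix partners spanned 2-fold. The share of the tested genes was 29.91 to 36.32%. Taking the mean gene as reference moved the list median to 2.42, 1.30, 2.69 and 1.54. The count higher in library 1 against 4 was 2 with log2(TPM + 1), 3 with the mean gene and 2 with median-of-ratios scaling. In library 3 against 4 it was 3 with log2(TPM + 1) and 3 with the mean gene. The count lower in library 3 against 2 was 0 with a pseudocount of 0.2, log2(TPM + 1), the mean gene or median-of-ratios scaling. Shares of the tested genes by pair are not given for these other settings, so these pair counts are not read against a background. At a minimum median TPM of 10, the background was 0% higher in library 1 against 3, and 1.247% higher and 0.6925% lower in 2 against 4. Of 48 single-gene levels, the mean gene moved 46 by more than 1 SD over libraries, a pseudocount of 0.2 moved 8, the like-span reference 7 and log2(TPM + 1) 4, while coverage, median-of-ratios scaling and a pseudocount of 0.01 moved 0. Coverage could not move any, since TPM is a constant multiple of it within a library. The cause of these shifts was not tested beyond the references named. Low coverage limits ECM10 most among the 8 genes. Among the matrix partners it limits MDJ2, TCM62 and JAC1 most, with a coverage of 0.85, 1.17 and 1.3 in library 4. No paired analysis was possible because the labels give no groups or replicate numbers for the RNA-seq libraries.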

Other observations

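Levels of some genes next to the matrix chaperone genes are given as values only. TAH11, 445 bp from SSC1 on the opposite strand, had 268, 19.6, 129.8 and 10.6 TPM, while VPS55, 452 bp away on its other side, had 16.5, 7.42, 10.1 and 6.16 TPM. GSY2 and LCB5, which flank HSP60 at 450 and 841 bp, had 69, 26.7, 25.1 and 16.1 TPM and 94.8, 8.63, 32.4 and 3.93 TPM. YAP6, 387 bp from HSP78, had 2.97, 3.89, 2.13 and 0.528 TPM. These neighbours were named after their values were seen.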
